A study of Mus musculus with 4 samples.

Results

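In epithelial mouse breast cancer cells, 1190 peaks of the transcription factor Slug lay at the start or end of a protein-coding gene without touching a peak of its relative Snail. Chromatin immunoprecipitation with sequencing (ChIP-seq) finds such peaks as stretches of DNA that are recovered more often with an antibody to the factor. A Slug peak was counted here when it overlapped no Snail peak by 1 bp or more and its midpoint lay within 1 kb of either end of a protein-coding RefSeq gene. The 1190 peaks made up 2.86% of all 41612 Slug peaks (95% Wilson interval 2.70 to 3.02%) and 45.8% (43.8 to 47.7%) of the 2601 Slug peaks at such ends. The remaining 1411 peaks at ends were shared with Snail, and 35384 Slug peaks without Snail overlap lay elsewhere in the genome. The peaks were thus chosen by measured values, their overlap with Snail and their distance to a gene end, and both are given as description only.

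At issue was how far Slug and Snail differ in driving the epithelial-mesenchymal transition (EMT), in which epithelial cells take on mesenchymal traits. Slug was mapped in the epithelial, Slug-high line pBl.1G and Snail in the mesenchymal, Snail-high line pBl.3G. Both are MMTV-PyMT lines, derived from mouse mammary tumours in which a mammary tumour virus promoter drives the polyoma middle T oncogene. Each factor had 1 ChIP library, so no difference has a replicate check and no p-value is given. Factor, cell line and antibody changed together between the lists and cannot be told apart. The Slug antibody is the rabbit monoclonal C19G7, whereas the Snail library was made with an antibody labelled Anti-SNAIL + SLUG. The 2 input DNA libraries, 1 for each line, came without a peak list and were not used here. Peak lists hold no transcript levels, so the labelled cell types could not be checked by their markers.

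Slug, encoded by Snai2, and Snail, encoded by Snai1, are zinc finger repressors of the same family. Their zinc fingers recognise the E-box CAGGTG, and they recruit corepressors that silence epithelial genes such as Cdh1, which encodes E-cadherin. In the mammary gland Slug is known from basal cells and from stem and progenitor cells.

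Of the promoters that these Slug peaks covered, 8 are shown because they carry the sequence result. Each is a 300-base RefSeq window, 250 bases before to 50 after the gene start, on the strand of the gene and written 5′ to 3′. The build is GRCm38.p6, whose coordinates mm10 shares. Capitals mark CAGGTG or its reverse complement CACCTG. The first 4 belong to the highest-scoring peaks that covered at least 150 bases of a window with the motif. The next pair come from the highest-scoring peaks that covered as much of a window without it. Crb3 and Ap1m2 were chosen after their values were seen, as epithelial genes with 4 copies.
Mfsd6l: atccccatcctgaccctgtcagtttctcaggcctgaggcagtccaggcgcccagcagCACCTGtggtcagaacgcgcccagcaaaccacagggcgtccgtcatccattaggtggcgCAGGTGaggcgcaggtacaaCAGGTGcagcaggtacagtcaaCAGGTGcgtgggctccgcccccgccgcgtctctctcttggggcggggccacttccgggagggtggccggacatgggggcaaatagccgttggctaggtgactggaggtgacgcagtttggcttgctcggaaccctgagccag
Grhl3: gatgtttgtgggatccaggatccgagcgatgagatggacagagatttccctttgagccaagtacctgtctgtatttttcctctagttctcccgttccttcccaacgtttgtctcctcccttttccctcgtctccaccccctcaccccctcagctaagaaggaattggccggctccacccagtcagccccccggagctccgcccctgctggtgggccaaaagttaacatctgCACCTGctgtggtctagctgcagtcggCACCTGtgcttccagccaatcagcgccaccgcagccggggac
Hes6: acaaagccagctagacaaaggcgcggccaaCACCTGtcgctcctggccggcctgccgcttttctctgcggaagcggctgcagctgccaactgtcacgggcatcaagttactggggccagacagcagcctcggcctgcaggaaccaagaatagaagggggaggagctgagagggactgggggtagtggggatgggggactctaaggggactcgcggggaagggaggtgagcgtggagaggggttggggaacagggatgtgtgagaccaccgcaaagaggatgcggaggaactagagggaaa
Grin1: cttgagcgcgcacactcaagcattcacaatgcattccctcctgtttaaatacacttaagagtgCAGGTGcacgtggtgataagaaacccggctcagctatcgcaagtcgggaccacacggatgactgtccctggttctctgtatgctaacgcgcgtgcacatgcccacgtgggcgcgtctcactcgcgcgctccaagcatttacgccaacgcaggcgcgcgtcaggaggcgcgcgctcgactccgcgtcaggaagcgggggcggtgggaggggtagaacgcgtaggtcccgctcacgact
Ociad2: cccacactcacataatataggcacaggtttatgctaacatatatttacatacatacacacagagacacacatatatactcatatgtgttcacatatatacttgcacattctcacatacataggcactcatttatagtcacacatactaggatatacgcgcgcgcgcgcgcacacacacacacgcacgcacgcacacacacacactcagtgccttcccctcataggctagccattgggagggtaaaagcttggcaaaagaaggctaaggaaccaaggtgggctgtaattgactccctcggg
Rhbdl1: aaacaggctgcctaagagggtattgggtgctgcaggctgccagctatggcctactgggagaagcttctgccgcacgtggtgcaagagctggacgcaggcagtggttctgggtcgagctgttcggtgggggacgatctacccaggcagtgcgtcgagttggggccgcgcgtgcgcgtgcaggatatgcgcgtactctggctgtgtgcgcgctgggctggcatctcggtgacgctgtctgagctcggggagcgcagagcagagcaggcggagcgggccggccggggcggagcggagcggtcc
Crb3: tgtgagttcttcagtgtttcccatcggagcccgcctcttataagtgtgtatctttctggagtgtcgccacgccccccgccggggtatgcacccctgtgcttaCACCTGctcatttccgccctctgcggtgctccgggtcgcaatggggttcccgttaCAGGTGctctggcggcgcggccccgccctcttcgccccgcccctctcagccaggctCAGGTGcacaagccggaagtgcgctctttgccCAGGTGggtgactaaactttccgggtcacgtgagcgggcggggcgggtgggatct
Ap1m2: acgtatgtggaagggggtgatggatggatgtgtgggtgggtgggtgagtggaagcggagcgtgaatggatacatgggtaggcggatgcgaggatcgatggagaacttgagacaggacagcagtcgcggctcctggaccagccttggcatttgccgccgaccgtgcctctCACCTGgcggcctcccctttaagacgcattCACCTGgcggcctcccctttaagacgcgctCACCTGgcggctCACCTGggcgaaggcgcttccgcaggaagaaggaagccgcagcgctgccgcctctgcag
Mfsd6l, at chr11:68555936-68556235 on the plus strand, encodes a membrane protein of the major facilitator superfamily. Its peak scored 586.5 and covered 294 of the 300 bases, with E-boxes beginning 193, 134, 114 and 92 bases before the start. Grhl3, at chr4:135573583-135573882 on the minus strand, encodes a Grainyhead-like factor that promotes epithelial barrier genes. Here the peak scored 404 and covered all 300 bases, and the motif lay 19 bases before and 8 bases after the start, so both copies flank it. Hes6, at chr1:91413989-91414288 on the minus strand, encodes a basic helix-loop-helix factor of the Hes family. It had 1 copy 220 bases before the start under a peak of score 295. That peak lay 77 bp from the nearest Snail peak. Grin1, the obligatory subunit of the NMDA glutamate receptor, lies at chr2:25319138-25319437 on the minus strand. Its peak scored 288 and its single copy lay 187 bases before the start.

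Ociad2, at chr5:73338898-73339197 on the minus strand, had no CAGGTG although 297 bases lay under a peak of score 349. That peak lay 112 bp from the nearest Snail peak. Rhbdl1, a rhomboid-like protease gene at chr17:25837078-25837377 on the minus strand, also had no CAGGTG, with 262 bases under a peak of score 224. Crb3, at chr17:57061981-57062280 on the plus strand, encodes an apical polarity protein of the Crumbs complex. Its 4 copies began 148, 93, 37 and 5 bases before the start, under a peak of score 197. Ap1m2, at chr9:21312284-21312583 on the minus strand, encodes the epithelial subunit of the AP-1 sorting adaptor. All 4 of its copies lay within 81 bases of the start, under a peak of modest score, 97.8.

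Over all covered promoters, the CAGGTG E-box was frequent. Of the 1190 peaks, 93 (7.82%) overlapped such a window, touching 99 promoters of 93 genes. CAGGTG was found on either strand in 53 of the 99, or 53.5% (43.8 to 63.0%), and 19 of them held 2 or more copies. Among all 21263 promoters in the table, none of them on chromosome 18, the share was 19.7% (19.2 to 20.3%). Promoters under a shared Slug peak held it in 37.6% (34.1 to 41.2%; n = 718), and those under a Snail peak alone in 15.2% (14.5 to 15.9%; n = 9746). Where the peak covered at least 100 bases the share was 63.9%, and at 150 bases 69.8%. It differed little with score, being 53.5% for peaks of 100 or more and 53.6% for peaks under 100. Intervals here and elsewhere cover counting error only, and neighbouring promoters are not independent.

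Base composition was not far from that of promoters at large. The median GC content was 56.3% in the 99 promoters and 56.3% in all promoters. It was 60.7% under shared peaks and 62.3% under a Snail peak alone. Median CpG counts per window were 11, 13, 21 and 23 in the same order. The looser pattern CANNTG, of which CAGGTG is a case, was in 92.9% of the covered promoters against 69.0% of all. CAGGTA, which differs from the E-box in its last letter, was in 23.2% against 11%. Of the other 9 hexamers of that form, CATGTG was in 19.2% (12.7 to 28.0%) against 11.5% and CAAATG in 18.2% (11.8 to 26.9%) against 11.6%. The intervals of the remaining 7 held the share in all promoters, among them CAGCTG (19.2% against 15.6%) and CACGTG (12.1% against 7.84%). The GC box GGGCGG (42.4% against 46.2%), the CCAAT box (29.3% against 38.2%) and TATAAA (10.1% against 12.6%) were not more frequent than in all promoters. Each motif was searched on both strands, and a match is a description of letters, not a bound site.

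Within the same 99 promoters the E-boxes sat under the peaks. Promoter bases inside a peak held 56 copies in 13318 bases, a density of 4.21 per kb (exact Poisson interval 3.18 to 5.46). Bases of those promoters outside the peak held 17 copies in 15204 bases, or 1.12 per kb (0.651 to 1.79). GC content was 58.0% inside and 56.6% outside. None of the other 9 hexamers of the form CANNTG exceeded 0.901 per kb inside, and their ratio of inside to outside ran from 0.571 to 2.28, against 3.76 for CAGGTG. This was not particular to Slug-only peaks. In promoters under shared Slug peaks CAGGTG had 2.64 per kb inside and 0.589 outside, a ratio of 4.49.

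The copies gathered at the middle of the peaks. Within 50 bp of the midpoint 45 copies lay in 5413 promoter bases, 8.31 per kb (6.06 to 11.1). From 50 to 100 bp the density was 1.74 per kb, and in the 50 bp bins from there to 400 bp it ran between 0.354 and 1.61. Shared Slug peaks at gene ends had 3.99 per kb (3.31 to 4.77) in the central 50 bp and 2.10 in the next. Snail peaks without Slug had 0.470 per kb at their middle (0.395 to 0.555), and the bins farther out ran from 0.460 to 0.677. In the promoters they overlapped, Snail-only peaks covered 2322769 bases and left 143287 outside. The Slug-only peaks covered 13318 and left 15204, so the midpoint of a Snail-only peak marks a less sharp centre and these profiles are not like for like.

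**Figure D1:**
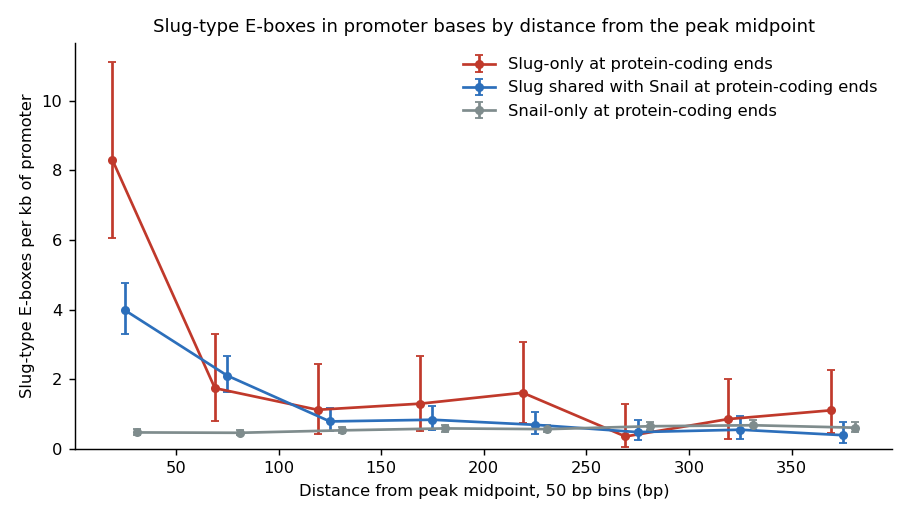
Copies of the Slug-type E-box per kb of promoter (y axis) against distance from the peak midpoint in 50 bp bins (x axis, bp), with exact Poisson 95% intervals as bars and points set slightly apart for reading. The Slug-only peaks at protein-coding ends reach 8.31 in the central bin, shared Slug peaks 3.99 and Snail-only peaks 0.470, and the lines come close together beyond 100 bp. Snail-only peaks cover most bases of their promoters, so their midpoint marks a less sharp centre.

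As defined by the overlap rule, Slug-only peaks did not crowd onto gene starts the way shared peaks did. Strand was known from the promoter table for 17492 of the 21887 protein-coding genes (79.9%), none of them on chromosome 18. Of the 887 peaks whose nearest gene had a strand, 497 lay at the gene start and 390 at its far end, so 56.0% (52.7 to 59.3%) were at a start. Shared Slug peaks lay at a start in 92.4% (90.7 to 93.8%) and Snail-only peaks in 92.1% (91.5 to 92.7%). Strand was unknown for 303 of the peaks. The share at starts rests on the overlap rule, which takes out Slug peaks that touch Snail. It was 76.0% where sharing needed a reciprocal overlap of 50% and 47.8% where Snail within 500 bp counted as shared. The midpoint fell inside the gene for 469 peaks (39.4%) and outside for the rest, whereas 57.0% of shared peaks fell inside.

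Distances filled the window almost evenly. The median distance to the gene end was 534.5 bp, against 283 bp for shared and 175 bp for Snail-only peaks. Under 100 bp lay 8.40% of the Slug-only peaks, 20.3% of the shared and 31.9% of the Snail-only peaks. Between 900 and 1000 bp the shares were 11.9%, 4.18% and 2.52%. Snail peaks gather near gene starts and the rule takes out Slug peaks that touch them, so these contrasts rest partly on the rule. At the edge of the window, the peaks of Taf9b and Rab9b sat at 1000 bp with scores of 92.5 and 99.5. Those of Vmn2r115 and Ptges2 sat just outside at 1002 bp with scores of 54.2 and 60.3. Across that edge the median score was 79.4 for 142 peaks at 900 to 1000 bp and 81.0 for 134 Slug-only peaks in the next 100 bp outward.

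Over all genes, Slug-only peaks were sparser in the kilobase downstream of starts than in the flank beyond it. At genes without a Snail peak at either end they were not. Where the gene had no Snail peak, they were denser within 250 bp of the start than in the flanks on average. Per 1000 gene starts they numbered 17.4 per kb (15.5 to 19.4) in the kilobase upstream and 16.8 per kb (15.9 to 17.8) from 1 to 5 kb upstream. In the kilobase downstream there were 12.9 (11.3 to 14.7), against 16.4 (15.5 to 17.4) from 1 to 5 kb downstream. Shared peaks numbered 3.15 per kb in the upstream flank and 58.3 within 250 bp of the start, where Slug-only peaks had 12.5 (10.2 to 15.1). A Slug peak on a start that bore Snail was by the rule not counted. At the 8866 starts of genes without a Snail peak at either end, Slug-only peaks had 21.4 per kb (17.3 to 26.2) within 250 bp, against 16.3 (15 to 17.7) upstream and 14.7 (13.5 to 16) downstream in the flanks. In the kilobase downstream of these starts they had 15.3 per kb (12.9 to 18.1), against the 14.7 of the downstream flank. The nearest bins of the upstream flank were about as dense as the start. Per 1000 such starts, the 250 bp bins before and after the start held 6.32 and 4.40. Those from 1500 to 1250 and 1250 to 1000 bp upstream held 6.09 and 5.41.

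Gene ends showed a gap on the inner side. Slug-only peaks numbered 8.30 per kb per 1000 ends (7.01 to 9.77) in the last kilobase of the gene and 15.5 (13.7 to 17.5) in the first kilobase beyond it. The flanks had 14.9 and 14.4. In genes without Snail, the last 250 bp of the gene held 7 peaks at 8861 ends, and the first 250 bp beyond held 32. The sparse stretch lay on the gene's side of the end.

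**Figure D2:**
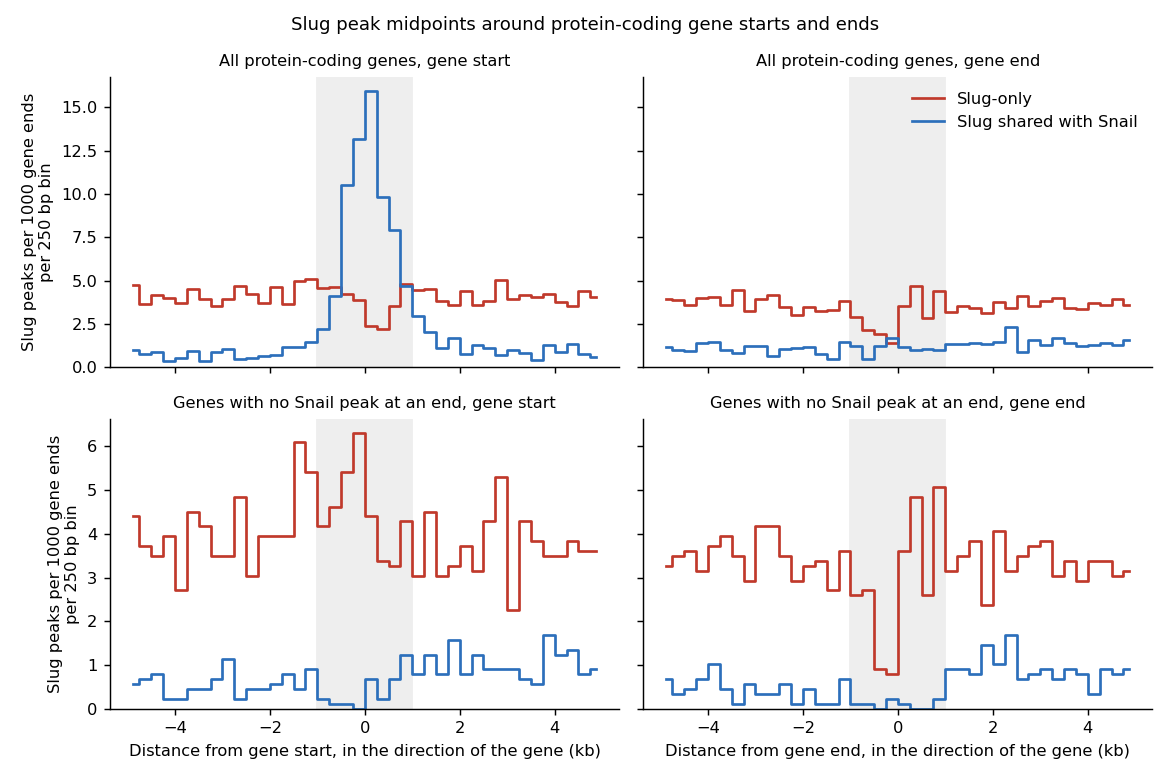
Slug peak midpoints per 1000 gene ends in 250 bp bins (y axis) against distance from the gene start (left) or gene end (right) in kb, in the direction of the gene, for all genes with a known strand (top) and those with no Snail peak at either end (bottom). Grey marks the 1 kb window. Shared peaks form a summit at starts. Slug-only peaks dip to 2.35 and 2.18 in the first bins past the start of all genes, and dip in the last part of the gene. In genes without Snail they reach 6.32 in the bin before the start and 6.09 in the bin 1500 to 1250 bp upstream.

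The authors' score ranks peaks within the Slug list. Its median was 82.0 (95% interval of the median 79.1 to 86.7; quartiles 59.9 and 147), against 78.7 (78.1 to 79.3) for Slug-only peaks elsewhere and 78.4 (76.0 to 81.7) for shared peaks at ends. Shared peaks away from ends had a higher median, 118 (114 to 123). Scores ran from 50.03 to 1239, with 469 peaks (39.4%) at 100 or more and 20 at 500 or more. With the list cut at a score of 100 the medians were 172 here and 173 elsewhere, so the small difference from peaks elsewhere turned around. Where sharing needed a reciprocal overlap of 50%, 2521 of the 2601 Slug peaks at ends were counted, with a median of 78.7, against 79.0 elsewhere. The few shared peaks left at ends had 225 (163 to 316). Both differences turned around, but this setting counts as Slug-only many peaks that overlap Snail. The median width was 216 bp (212 to 221), against 201 bp elsewhere, 228 bp for shared peaks at ends and 269 bp for shared peaks elsewhere. Peaks at gene starts had a median score of 80.8 and peaks at far ends 90.6.

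**Figure D3:**
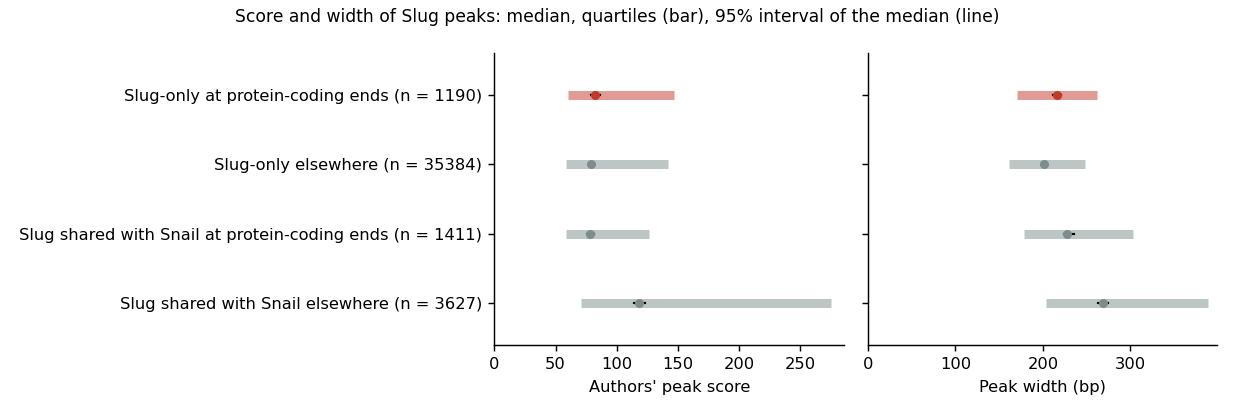
Score given by the authors (left x axis) and width in bp (right x axis) of Slug peaks in 4 classes (y axis). Points are medians, bars the quartiles and thin lines the 95% interval of the median. The Slug-only peaks at protein-coding ends have medians of 82.0 and 216 bp and overlap widely with the other classes.

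"Slug-only" describes the peak and not the gene. Of the 1184 genes with such a peak, 510 (43.1%, 40.3 to 45.9%) also carried Snail at a gene end, where 48.7% of all protein-coding genes did. Genes with a Snail peak at an end had a Slug-only peak in 4.78% of cases (4.39 to 5.20%) and genes without in 6% (5.58 to 6.46%). That order rests on the overlap rule. Counted over peaks, the share whose nearest gene had Snail at an end was 41.8% as defined, 71.1% where sharing needed a reciprocal overlap of 50%, and 28.9% where Snail within 500 bp counted as shared. A shared Slug peak stood at the ends of 66 of the 1184 genes as well. Within 100 bp of a Snail peak lay 57 of the 1190 peaks (4.79%), within 500 bp 230 (19.3%) and within 1 kb 292 (24.5%). For Slug-only peaks elsewhere the share within 1 kb was 3.69%, and the median gap to the nearest Snail peak was 36.9 kb against 10.8 kb here.

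Closeness to Snail differed between the ends of genes. At gene starts 37.6% of the peaks lay within 1 kb of a Snail peak, and at far ends 9.74%. Snail-only peaks at either end of a gene lay at its start in 92.1%, so this contrast follows where Snail lay. Peaks whose nearest gene had a Snail peak at an end sat farther out, at a median of 623.5 bp against 472 bp, with like scores (81.0 and 82.8). A counted peak must lie clear of Snail, so this difference in distance is in part set by the rule. Closest without overlap was the peak at Tmem141, which abutted a Snail peak with a gap of 0 bp and scored 71.7. Next came those at Chek2, a checkpoint kinase gene, with a score of 78.2, and at the histone gene H2bu2, with a score of 226, both with a gap of 1 bp. H2bu2 was added after its values were seen. On the other side of the rule, the peaks at Tk2 (50.2) and Ppl (115) overlapped a Snail peak by 1 bp. Median scores were 72.4 for the 56 peaks with a gap under 100 bp and 68.7 for 60 peaks that overlapped by about 100 bp or less.

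The 10 highest scores fell at genes of many kinds. Susd4, a regulator of complement, had the highest, 1239, in a peak at chr1:182763631-182763986, 236 bp upstream of its start and 134 kb from the nearest Snail peak. Pcdhb22, a clustered protocadherin, followed with 1034. Oxct2a and Oxct2b, testis-type ketone body enzymes, had 915 and 748.5 at their far ends. These last 3 genes have near-identical copies, and how reads with several matches were placed is not given in the sources used here, so their scores are uncertain.

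Others of the 10 belong to signalling and RNA biology. Tiam2, an exchange factor that activates Rac, had a peak of 829 placed 979 bp from its start and 362 bp from a Snail peak. The RNA-binding repressor Pum2 had 698 at its far end. Grb7, an adaptor of receptor tyrosine kinases that is often co-amplified with ERBB2 in human breast cancer, had 683 just inside a gene end whose strand was unknown. Smap2, an Arf GTPase-activating protein, had 641, the helicase gene Ddx10 638 and Mfsd6l 586.5. Of these 10 genes, Tiam2, Pum2, Smap2 and Ddx10 had a Snail peak at an end.

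Most genes had 1 such peak. Of the 1184, 1118 had 1, 65 had 2 and Olfr279, an olfactory receptor gene, had 3, scoring 106, 148 and 143. Conversely 1129 peaks lay at 1 gene and 61 at the ends of 2 neighbouring genes. Among genes with 2 peaks the strongest were Smap2 (641 and 50.5), Miga1 (501 and 79.8), Gabrb2 (495 and 50.6), Ralgps1 (473 and 76.3), Atp1b4 (376 and 64.6), Ociad2 (349 and 338) and Pcsk4 (339 and 167). Ociad2 had 1 peak at each end of the gene, and both were high. The widest peaks were those at Gm36327 (2037 bp), Gm40363 (1214 bp) and Uros (791 bp).

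Across gene lists, 39 of 350 memberships (11.1%) had a Slug-only peak within 1 kb of an end, against 5.41% of all 21887 protein-coding genes. The 39 stand for 37 genes, since Wnt4 and Cdkn1a are in 2 lists each. The 3 control lists of neuronal, hepatocyte and immune genes reached 6 of 64 (9.38%), and the other 12 lists 33 of 286 (11.5%). A Wilson interval wholly above the background was seen for 5 lists, the neuronal control among them. List shares are thus a description with wide intervals, and nothing is read from them about any pathway.

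Epithelial polarity had the highest share, 5 of 18 genes (27.8%, 12.5 to 50.9%). Snail stood at an end of 15 of the 18 and a shared Slug peak at 4, where 48.7% of all protein-coding genes had Snail there. Of the 5, Pard3 and Llgl2 had Snail at an end, and Prkcz, Crb3 and Rab25 did not. Pard3, a scaffold of the Par complex, had a peak of 332 at 917 bp beyond its far end. Crb3, shown among the promoters, had 197. Rab25, an epithelial GTPase of recycling endosomes, had peaks of 107 and 68.7 at its start, and its promoter held 2 E-boxes. Prkcz, the atypical protein kinase C of the Par complex, had 57.4 and Llgl2, a Scribble-module protein, 54.5. Thus 3 of the 18 genes, Pard3, Crb3 and Rab25, had a peak of score 100 or more, where 2.2% of all protein-coding genes had one that high and 3 of 24 in the neuronal control list.

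Epithelial transcription and splicing factors followed with 4 of 21 (19.0%, 7.67 to 40.0%), all from the Grainyhead-like and Ovo-like families. Grhl3 had 404, Ovol2 83.0, Ovol1 75.5 and Grhl2 66.7. Their midpoints lay 20, 9, 17 and 111 bp from a gene end, and none of the 4 genes had a Snail peak at an end. Of all genes with a Slug-only peak at an end 43.1% had one, and of all protein-coding genes 48.7%. The rule leaves out Slug peaks that touch Snail, so peaks this close to an end make Snail there unlikely. Ovo-like factors repress mesenchymal genes, and Grhl2 activates Cdh1. The splicing regulator Esrp1 had no such peak, its nearest Slug-only peak being 31.5 kb away with a score of 517.

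Epithelial junctions had 4 of 30 genes (13.3%, 5.31 to 29.7%), an interval that reaches the background. Nectin4, a nectin adhesion molecule, had 332 just inside its start, where the peak covered 42 bases of a promoter without CAGGTG. The tight junction gene Cldn4 had 94.9 and 79.1 in neighbouring peaks at its start, with 2 E-boxes in its promoter. Evpl, a cornified envelope plakin, had 69.5 and the desmosomal Pkp1 55.4. Within 10 kb of an end, 26 of the 30 junction genes had a Slug-only peak, where 39.2% of all protein-coding genes had one. Over all lists it was 196 of 350 memberships, and in the neuronal control list 13 of 24 genes.

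EMT transcription factors had 3 of 23 (13.0%), namely Gsc (79.4), Foxq1 (60.7) and Tcf4 (52.2), none above 100. Mesenchymal markers had 1 of 29, the receptor gene Pdgfrb at 57.8. Luminal markers had 1 of 20, Wnt4, a ligand that acts after progesterone, at 149. Basal markers had 2 of 24, the keratins Krt5 (61.6) and Krt17 (52.4). The Krt5 peak covered 260 bases of its promoter, which held 1 E-box.

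In signalling lists, Notch had 4 of 23 genes (17.4%, 6.98 to 37.1%). These were the Hes family members Hes6 (295) and Hes5 (71.6), the receptor Notch3 (154) and the ligand Jag2 (50.6). Wnt signalling had 2 of 27, Wnt4 and the ligand Wnt10a (91.5 and 58.8), and TGF-beta and BMP signalling 1 of 27, the ligand Bmp7 (86.2).

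The p53 and apoptosis list had 4 of 20 (20%, 8.07 to 41.6%). Mdm2, the ligase that degrades p53, had 283 and the pore-forming Bax 182, both inside their far ends and both in genes with a Snail peak at an end. Cdkn1a, which encodes the inhibitor p21, had 82.6 at 750 bp upstream of its start, and the survival gene Mcl1 had 75.6. Cell cycle genes had 2 of 24, Cdkn1a and the retinoblastoma gene Rb1 (78.7). In the neuronal control list 4 of 24 genes (16.7%, 6.68 to 35.8%) had a peak, namely the GABA receptor subunit Gabrb2 (495), Grin1 (288), Grin2a (119) and the splicing factor Rbfox1 (56.6). The hepatocyte list had 1 of 20, Tat (124), and the immune list 1 of 20, the T cell receptor component Cd3e (122 and 107).

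Among families of related symbols, keratins had 7 of 53 (13.2%, 6.55 to 24.8%) and Rab GTPases 6 of 59 (10.2%). Solute carriers had 27 of 375 (7.20%, 5.00 to 10.3%), an interval that holds the background of 5.41%. Zinc finger genes of the Zfp series had 8 of 397 (2.02%, 1.03 to 3.92%), and 72.3% of them had a Snail peak at an end. Olfactory receptors had 23 of 1110 (2.07%, 1.39 to 3.09%) and vomeronasal receptors 4 of 355 (1.13%), with Snail at an end in 0.450% and 0.845%. Integrins had 0 of 31 and replication-dependent histones, a symbol set that does not hold H2bu2, 0 of 64, for which the upper bounds were 11% and 5.66%. Snail stood at an end of 38.7% of these integrin genes and 95.3% of these histone genes. It stood at an end of 76.3% of the Rab GTPase genes and 13.2% of the keratin genes. The rule leaves out Slug peaks that touch Snail, and its part in these family shares was not tested. Many receptor, zinc finger and histone genes have near-identical copies, where peaks are uncertain.

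**Figure D4:**
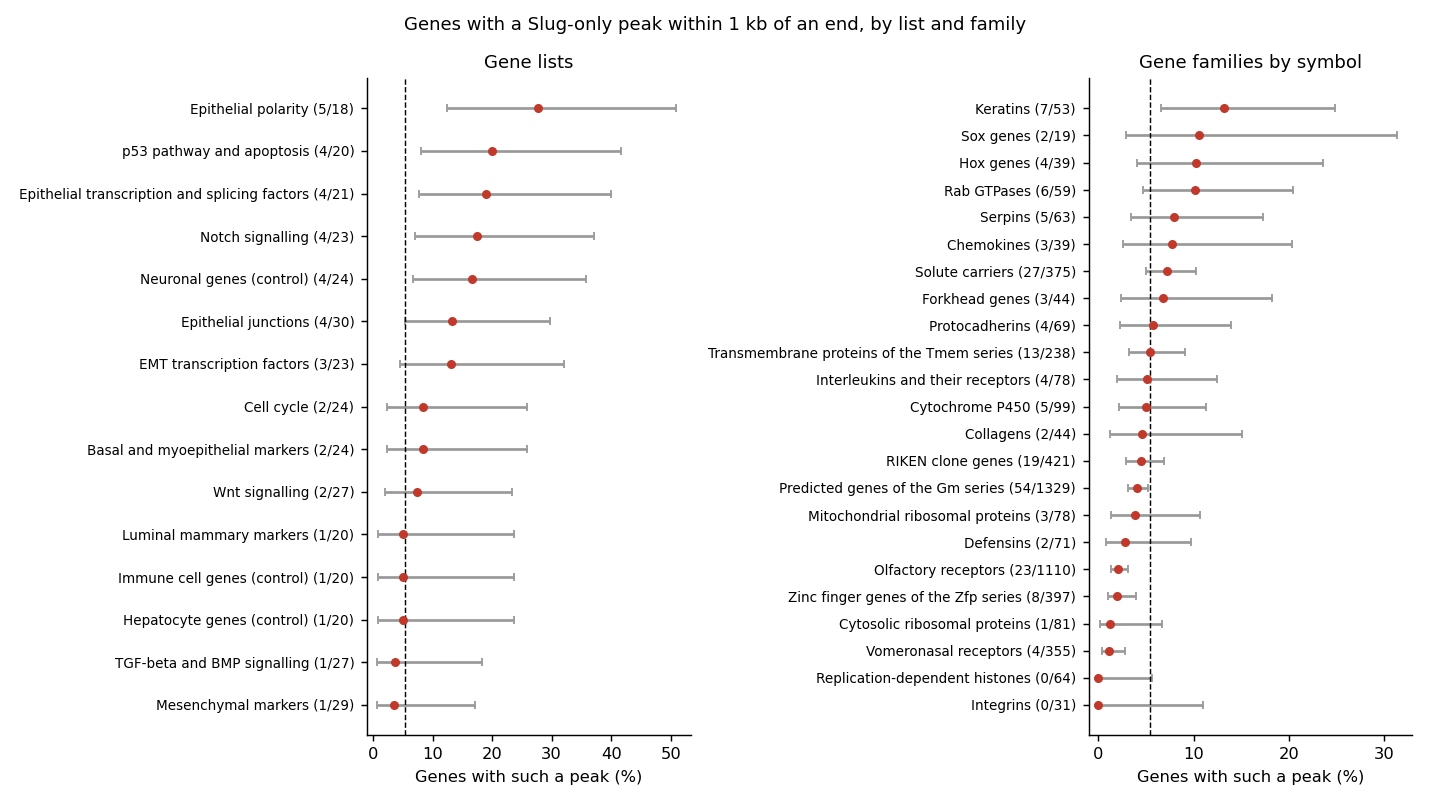
Percent of genes with a Slug-only peak within 1 kb of an end (x axis) for 15 gene lists (left) and 23 families (right), with counts in brackets and Wilson 95% intervals as bars. The dashed line is the 5.41% of all protein-coding genes. Epithelial polarity stands highest among lists at 27.8% and keratins among families at 13.2%, and the neuronal control list lies as high as several epithelial and signalling lists.

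Of 18 genes followed whatever they showed, Krt5, Grhl2, Grhl3 and Ovol2 had a Slug-only peak at an end. Cdh1 had none, its nearest lying 4.18 kb from an end with a score of 240. The adhesion gene Epcam had its nearest at 1.23 kb, just past the window, with 351. Nearest peaks were at 13.4 kb for Krt8 (669) and 2.44 kb for Krt14 (187). They lay at 5.58 kb for Zeb2 (60.4) and 12.2 kb for Zeb1 (86.4), both EMT regulators, and at 5.10 kb for the filament gene Vim (66.1). The Slug gene Snai2 had its nearest 74.6 kb away (346), and Snai1, 51.5 kb from a Slug-only peak (159), had 2 shared Slug peaks at its ends, the higher scoring 118. Itgb4 had 1 shared peak (86.1) and its nearest Slug-only peak at 9.87 kb (79.7). Trp63 (37.4 kb, score 308), Gata3 (5.50 kb, 55.5) and Elf5 (6.25 kb, 81.3) had neither kind within 1 kb.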

How the data were processed

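The authors deposited 1 peak list per ChIP library, with a position and a score per peak, and this score is used only to rank or filter peaks within its list. The submitters' processing notes list Bowtie, MACS 1.4.2 and the build mm10. For the scale of the score, the peak calling settings and the use of input, nothing is given in these sources. No reads were used, so depth is unknown. Genes and promoter windows came from RefSeq tables of GRCm38.p6, and a gene's strand was taken from its promoter entry. Positions were made 1-based. Shares carry Wilson intervals, densities exact Poisson intervals and medians order-statistic intervals, all at 95%. Python 3.11.15, numpy 2.4.6, pandas 2.3.3, scipy 1.17.1 and matplotlib 3.10.9 were used, and the overlap and motif counts were checked on simulated data. Peaks, gene lists and alternatives were chosen with earlier results of these data known, and 1 gene list is not reported here. Named genes were the 10 highest-scoring, the top 4 of each list, the 8 with most peaks, the widest 3, those nearest a threshold and 18 given genes.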

Additional observations from a re-analysis of the deposited data

How the results depend on the processing

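Of 64 values recomputed under 8 settings, 27 stayed close to those reported and 37 moved. Requiring a reciprocal overlap of 50% gave 2521 peaks, 6.06% of Slug peaks, at 11.8% of genes. Their median score was 78.7, against 225 for shared peaks, 71.1% had Snail at the gene and 76.0% lay at starts. Counting Snail within 500 bp as shared gave 2.31%, 4.36%, 28.9% with Snail and 47.8% at starts. A 500 bp window gave 554 peaks, 1.33%, 2.53%, 33.9% with Snail and 52.3% at starts. A 2 kb window gave 2370 peaks, 5.70%, 10.7% and 45.9% with Snail. Counting any base within 1 kb gave 3.23% and 6.10%. A Slug score of at least 100 gave 469 peaks, 2.20% of genes, medians of 172 and 262 bp, and 154 for shared peaks. Cutting both lists gave 507 peaks, 3.07%, 2.38%, medians of 171 and 264 bp, 153 for shared peaks and 37.9% with Snail. The ends of all annotated genes gave 2457 peaks, 5.91% and 5.04% of genes. The E-box share was 63.9% with 100 covered bases and 92.9% for any CANNTG. List memberships with a peak numbered 196 of 350 within 10 kb, against 39.2% of all genes, and 16 at a score of 100, against 2.2%. Scoring 1 promoter per gene (53.8%) or leaving out promoters with a Snail peak (55.3%), both chosen after seeing the data, left the E-box share close to 53.5%. No paired analysis was possible because each factor had 1 library. With no replicate, no depth and no strand for every gene, the counts describe these lists, and the effect of input or read placement was not tested.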

Other observations

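Chromosomes differed in how many of their protein-coding genes had a Slug-only peak at an end. Chromosome 11 had the highest share, 119 of 1609 genes (7.40%, 6.22 to 8.78%), and chromosome 13 the lowest of the autosomes, 32 of 829 (3.86%, 2.75 to 5.40%). On chromosome 9 it was 4% and on X 5.69%. The Y chromosome had 131 Slug peaks, none of them at a gene end without Snail, among 256 genes. By gene length, the shortest quintile had 3.72% (3.2 to 4.33%) and the longest 6.53% (5.84 to 7.30%), with 5.64%, 5.25% and 5.89% between. Snail peaks at an end were in 25.5% of the shortest and 52.6% of the longest genes.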
